A study of Mus musculus with 11 samples.

Results

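The genes described here carry out fatty acid synthesis, elongation and desaturation, together with their transcription factor. The 10 genes, Srebf1, Acly, Acaca, Fasn, Scd1, Scd2, Elovl5, Elovl6, Elovl7 and Fads1, were taken by symbol from the 12932 genes of the expression table, and all 10 were found. RNA was sequenced from alveolar macrophages (AMs) of C57BL/6J mice aged 9 weeks, with males and females in the study. Mature AMs (mAMs) came from Rxrab fl/fl mice without Cre, in which Rxra and Rxrb are both flanked by loxP sites but intact (control mAMs, 4 libraries), and from Cd11cCre+ Rxrab fl/fl littermates (RXR-deficient mAMs, 4 libraries). Immature AMs (ImmAMs, 3 libraries, replicates 2 to 4), which have high CD11b and lower SiglecF than mAMs, came from the same Cd11cCre+ Rxrab fl/fl genotype. All mice thus carried the floxed alleles, and the Cre transgene acts in CD11c+ cells, which include other lung phagocytes. No ImmAM library of the control genotype was analysed here, so maturity and genotype cannot be told apart between ImmAMs and control mAMs. Replicate 4 of RXR-deficient mAMs was outside the study's own comparison; it was kept out of the fit, and its values are given last.

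De novo lipogenesis turns citrate into palmitate in the cytosol. ATP citrate lyase (Acly) makes acetyl-CoA, acetyl-CoA carboxylase (Acaca) makes malonyl-CoA, and fatty acid synthase (Fasn) joins them into a saturated chain. ELOVL enzymes lengthen chains in the endoplasmic reticulum, stearoyl-CoA desaturases (Scd1, Scd2) insert the first double bond, and Fads1 adds the delta-5 double bond of polyunsaturated fatty acids. Srebf1 encodes the SREBP factor that activates many of these genes, and its own transcription is known to be activated by LXR, which binds DNA with RXR as its partner. AMs live in surfactant lipid and are known for handling it.

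Libraries held 16659960 to 37873532 reads on the listed genes. Levels are CPM, counts scaled to the size of the library, with TMM factors, and a gene was called where limma's Benjamini-Hochberg adjusted p (p-adj) was under 0.05 over all 12889 genes tested in 10 libraries. The files give 1 value per gene, so exons outside the floxed part are counted: Rxra lay at 310 to 380 CPM in control mAMs, 334 to 419 in the 4 RXR-deficient mAM libraries and 283 to 305 in ImmAMs, and Rxrb at 51.4 to 72.1, 39.3 to 55.3 and 31.9 to 35.2. Gene-level Rxra thus overlapped between control and RXR-deficient mAMs and is no check of the deletion. All 13 AM markers were in the table, and their sum, led by Chil3, was 23028 CPM or more in every library, but single markers differed. Ear2 was at 74.2 to 83.5 CPM in ImmAMs against 1950 to 2309 in control mAMs, Marco at 10.9 to 13.8 against 310 to 377, and Krt79 at 5.96 to 7.01 against 594 to 759. Krt79 was at 116 to 402 CPM and Fabp4 at 42.7 to 79.9 in the 4 RXR-deficient mAM libraries, the latter against 126 to 203 in control mAMs. Siglecf was at 19.3 to 19.7 CPM in ImmAMs against 244 to 264 in control mAMs and 198 to 241 in RXR-deficient mAMs. Fabp4, Car4, Mrc1 and Itgax were also lower in every ImmAM library than in every control library. Fabp5 went the other way, at 280 to 309 CPM against 218 to 258, as did Chil3, at 20272 to 21939 against 13182 to 18297. Pparg, Plet1 and Atp6v0d2 overlapped between ImmAMs and control mAMs. In RXR-deficient mAMs, Krt79, Fabp4, Siglecf and Marco (281 to 286 CPM) were below every control library. The other AM markers overlapped between RXR-deficient and control mAMs: Car4, Mrc1, Fabp5, Atp6v0d2, Itgax, Plet1, Chil3, Ear2 and Pparg. Of 8 interstitial macrophage markers, 6 were in the table, and they summed to 1.81 to 2.70 CPM in control mAMs, 3.57 to 12.0 in RXR-deficient mAMs and 290.2 to 315 in ImmAMs. In bulk RNA, fewer cells of a type and less RNA per cell cannot be told apart. The 3 comparisons share libraries, so their values are set side by side and not counted as independent of each other.

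In control mAMs, Acly had the highest level per length of exon, at 77.5 ± 2.41 CPM per kb (SD, n = 4). Elovl5 (41.1 ± 4.77), Srebf1 (23.8 ± 2.12), Scd2 (14.3 ± 2.84) and Fasn (9.62 ± 0.520 CPM per kb) followed, with ranges over libraries that did not overlap between these neighbours. Acaca was at 4.68 ± 0.311 CPM per kb, and Scd1, Fads1 and Elovl6, between 1.86 and 2.32 on average, overlapped. Elovl7, an elongase of long-chain fatty acids, was last, at 0.0263 ± 0.0271 CPM per kb. RXR-deficient mAMs had the same order of means among the first 5 genes, but there Srebf1 (16.7 ± 0.934, n = 3) overlapped with Scd2 (16.5 ± 2.30), and Scd1 (6.46 ± 2.22) overlapped with Fasn (6.68 ± 0.210). In ImmAMs Scd2 stood second, at 51.1 ± 0.904 CPM per kb (n = 3), above Elovl5 (28.7 ± 2.72) and Srebf1 (18.9 ± 1.04). Fasn (11.3) and Scd1 (8.19) followed, then Elovl7 (5.47), Acaca (5.18) and Fads1 (4.60), each overlapping with the next, and Elovl6 (2.66 CPM per kb). Counting length by the longest transcript instead left the order of the first 5 genes of control mAMs and ImmAMs as it was, but in RXR-deficient mAMs it moved Acaca to rank 5 and Fasn to rank 6, while the lower ranks changed for Acaca, Scd1, Fads1 and Elovl7.

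**Figure D1:**
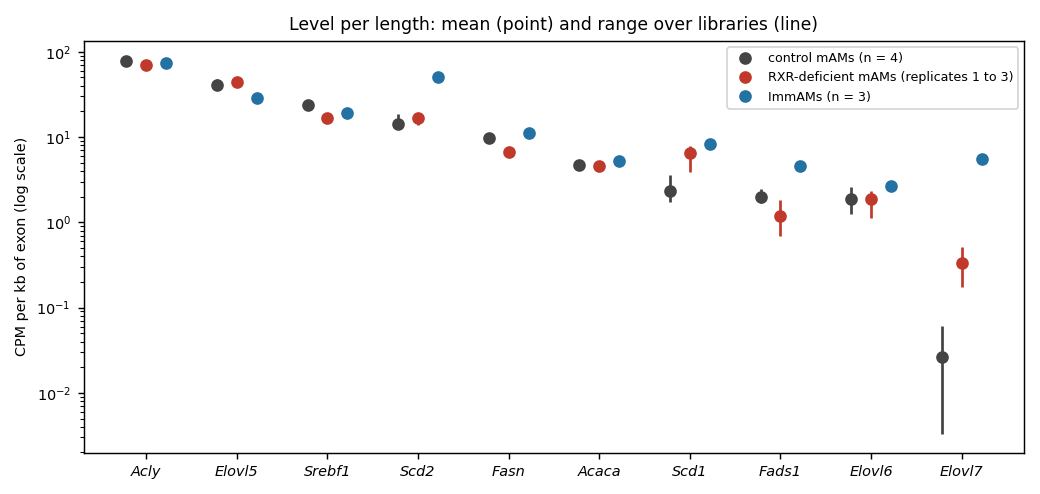
Level of each gene in CPM per kb of exon on a log axis, as the mean (point) and range over libraries (line) in control mAMs, RXR-deficient mAMs (replicates 1 to 3) and ImmAMs. Acly is highest in all 3 groups, Scd2 is 51.1 CPM per kb in ImmAMs against 14.3 in control mAMs, and Elovl7 spans the widest range between groups.

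Between RXR-deficient and control mAMs, 4 of the 10 genes were called: Fasn and Srebf1 were lower, and Scd1 and Elovl7 were higher. Over all genes tested, 4.84% were called (2.25% higher and 2.59% lower). RXR-deficient replicates 1 to 3 did not overlap with control mAMs for 5 of the 10 genes (Fasn, Srebf1, Scd1, Elovl7 and Acly) and for 20.1% of all genes; replicate 4 overlapped for Acly. The 10 genes had a median log2 fold change of -0.03, against -0.0019 over all genes, and the calls went in both directions. Elovl7 passed the filter on low values (1 CPM in at least 3 of the libraries) through the libraries where it is high, chiefly ImmAMs. Its calls as higher in the 3 comparisons are therefore no support, though the counts of called genes include it.

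Srebf1 (ENSMUSG00000020538) lies on the minus strand of chromosome 11, from 60199089 to 60222581 (GRCm38). It was at 120.0, 129.6, 139 and 148 CPM in the 4 control libraries, and at 99.9, 92.4, 89.8 and 118 CPM in the 4 RXR-deficient mAM libraries. Every RXR-deficient library was below every control library, replicate 4 by a small margin. The fitted log2 fold change was -0.51 ± 0.0799 (SE; limma p-adj = 0.00558). ImmAMs, at 102.5, 113 and 103 CPM, were also below every control library (log2 fold change -0.33 ± 0.0799, limma p-adj = 0.00401). ImmAMs and RXR-deficient mAMs differed by 0.18 on the log2 scale, with a 95% interval of -0.01 to 0.36 (limma p-adj = 0.122). The value sums all transcripts of the gene, which has several start sites, and 109 bases of its exons (1.94%) lie opposite an exon of Rai1; the library kit keeps the strand.

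Fasn (ENSMUSG00000025153; chromosome 11, 120805846 to 120824547, minus strand) encodes the multienzyme that builds palmitate. Its level was 99.6, 107, 102 and 112 CPM in control mAMs. RXR-deficient mAMs had 71.9, 75.7, 71.6 and, in replicate 4, 86.0 CPM. ImmAMs had 119, 136 and 116 CPM. The 3 groups did not overlap: RXR-deficient mAMs were lowest and ImmAMs highest. The log2 fold change was -0.53 ± 0.0739 in RXR-deficient mAMs (limma p-adj = 0.00296) and 0.23 ± 0.0739 in ImmAMs against control mAMs (limma p-adj = 0.0220). Between ImmAMs and RXR-deficient mAMs it was 0.75 ± 0.0790 (limma p-adj = 8.1e-06). The call of Fasn in ImmAMs against control mAMs rested on single libraries: its limma p-adj was 0.0555 without control replicate 1, 0.0519 without control replicate 3 and 0.125 without ImmAM replicate 3, in a range of 0.0110 to 0.125 over the fits that left out a library. No such fit ended the call in RXR-deficient mAMs.

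The promoters of Fasn and Srebf1, the members that were lower in RXR-deficient mAMs, are shown because LXR-RXR and SREBP act through sites near gene starts. They are RefSeq windows of 300 bases from 250 before to 50 after an annotated start (GRCm38.p6), read 5′ to 3′ on the gene's strand. Capitals mark CCAAT on either strand, the box bound by NF-Y, a known partner of SREBP. They are chr11:120824498-120824797, chr11:60210422-60210721 and chr11:60222532-60222831, all on the minus strand.
Fasn: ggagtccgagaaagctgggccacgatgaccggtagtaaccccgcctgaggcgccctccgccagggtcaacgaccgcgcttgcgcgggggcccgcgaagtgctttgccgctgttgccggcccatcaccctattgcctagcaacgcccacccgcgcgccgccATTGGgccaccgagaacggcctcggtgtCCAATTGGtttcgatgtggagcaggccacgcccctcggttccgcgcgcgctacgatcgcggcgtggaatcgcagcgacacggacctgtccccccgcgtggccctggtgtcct
Srebf1, inner start: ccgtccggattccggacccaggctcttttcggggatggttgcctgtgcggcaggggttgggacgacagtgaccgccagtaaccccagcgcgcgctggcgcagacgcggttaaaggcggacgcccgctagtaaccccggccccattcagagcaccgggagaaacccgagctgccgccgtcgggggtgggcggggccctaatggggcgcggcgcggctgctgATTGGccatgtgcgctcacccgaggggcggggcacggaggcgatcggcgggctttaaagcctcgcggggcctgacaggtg
Srebf1, outer start: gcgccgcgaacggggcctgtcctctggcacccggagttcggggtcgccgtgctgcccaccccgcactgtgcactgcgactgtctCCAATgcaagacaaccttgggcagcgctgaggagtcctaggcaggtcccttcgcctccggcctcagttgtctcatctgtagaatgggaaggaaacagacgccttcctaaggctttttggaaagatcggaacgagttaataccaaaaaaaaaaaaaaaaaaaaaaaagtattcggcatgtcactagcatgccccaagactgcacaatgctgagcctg

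In the Fasn window CCAAT lies on the plus strand from -62 to -58 and on the minus strand from -90 to -86 and from -59 to -55, counted from the start; the matches at -62 and -59 overlap. Each Srebf1 window has 1 match, from -30 to -26 on the minus strand in the inner and from -166 to -162 on the plus strand in the outer one; the other Srebf1 window given has none. Windows were at hand for 7 of the 10 genes, 9 windows in all, and 5 of the 9 held CCAAT (Acly, Elovl5, Fasn and Srebf1), against 37.4% of all 32851 windows. The palindrome CACGTG, the E-box, was found in Elovl5 (7.15% of all windows), and the nuclear receptor element AGGTCA in Acly and Elovl6 (16.3%). Neither the sterol response core TCACNCCAC (1.24% of all windows) nor 2 copies of AGGTCA spaced by 4 bases (DR4, 0.0152%) or by 1 base (DR1, 0.0396%) was matched in the 9 windows. Both strands were searched, but only for exact matches. Exact copies of DR4 and DR1 are so rare over all windows that finding none says nothing about LXR-RXR sites. Looser forms of these elements were not searched for and would stand unmarked in the windows shown. Scd1, Scd2 and Fads1 had no window.

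The desaturase genes Scd1 and Scd2 lie on chromosome 19, with Scd4 between them. Scd1 (ENSMUSG00000037071; 44394455 to 44407879, minus strand) was at 9.81, 9.51, 17.7 and 8.37 CPM in control mAMs and at 37.8, 19.1, 37.9 and 31.6 CPM in RXR-deficient mAMs. The highest control library, replicate 3, stayed just under the lowest RXR-deficient library, replicate 2. Scd1 was higher by 1.48 ± 0.264 on the log2 scale (limma p-adj = 0.0108). ImmAMs had 41.6, 41.9 and 36.6 CPM, a log2 fold change of 1.88 ± 0.264 against control mAMs (limma p-adj = 6.8e-05) and of 0.41 ± 0.283 against RXR-deficient mAMs (95% interval -0.21 to 1.02, limma p-adj = 0.285). The call in RXR-deficient mAMs was lost without RXR-deficient replicate 1 (limma p-adj = 0.0519) or replicate 3 (0.0576), in a range of 0.00101 to 0.0576 over the fits that left out a library.

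Scd2 (ENSMUSG00000025203; 44293674 to 44306864, plus strand) was at 68.6, 71.1, 101 and 71.2 CPM in control mAMs and at 93.5, 76.1, 100.5 and 98.1 CPM in RXR-deficient mAMs. These groups overlapped, and the log2 fold change of 0.22 ± 0.129 was not called (95% interval -0.06 to 0.49, limma p-adj = 0.332). ImmAMs had 274, 283 and 280.0 CPM, far above all mAM libraries. Scd2 was higher there by 1.86 ± 0.129 against control mAMs (limma p-adj = 1.1e-07) and by 1.64 ± 0.138 against RXR-deficient mAMs (limma p-adj = 1.1e-06), on the log2 scale.

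The make-up of the pair followed. Scd1 gave 10.5 to 14.9% of the summed Scd1 and Scd2 CPM in control mAMs, 20.1 to 28.8% in the 4 RXR-deficient mAM libraries and 11.6 to 13.2% in ImmAMs. The sum was 89.4 ± 19.7 CPM (n = 4), 122 ± 23.2 (replicates 1 to 3) and 319 ± 5.42 (n = 3). Shares are given as a description, without a test. The paralogues can share reads: 3.68% of the 60-base windows of Scd1 transcripts and 2.73% of those of Scd2 also occur in another gene, mostly of the Scd family, and the authors' counting divides such reads by estimate.

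**Figure D2:**
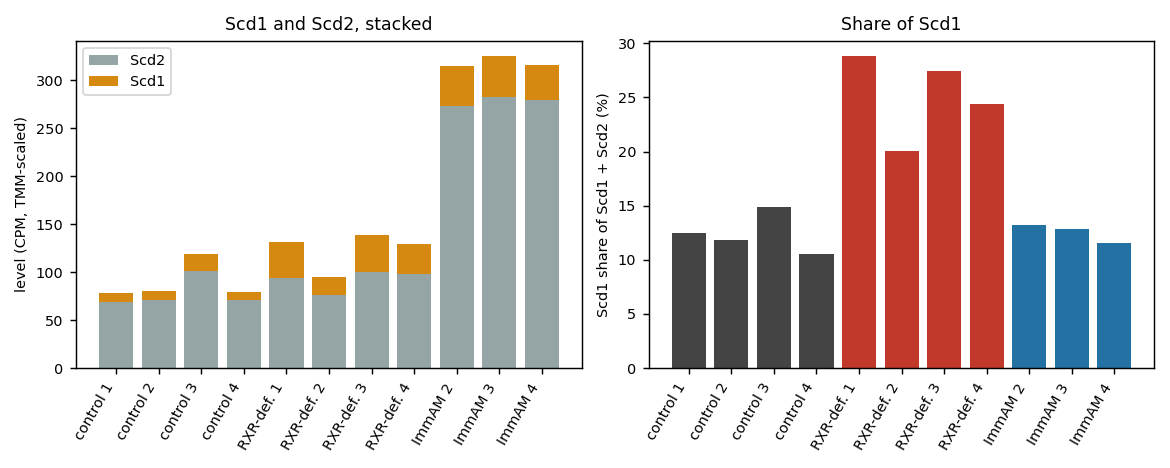
Left, CPM of Scd2 and Scd1 stacked in each of the 11 libraries, and right, the share of Scd1 in their sum in percent. The sum reaches 315 to 325 CPM in ImmAMs, and the share of Scd1 is 20.1% or more in RXR-deficient mAMs and 14.9% or less in the other libraries.

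Elovl7 (ENSMUSG00000021696; chromosome 13, 108214404 to 108285683, plus strand) was nearly without reads in control mAMs, with 0, 3, 6 and 0. RXR-deficient mAMs had 26, 16, 37 and 29 reads (1.22, 0.701, 2.08 and 1.35 CPM), and ImmAMs 388, 445 and 418 (23.2, 20.7 and 22.0 CPM). The 3 groups did not overlap. Its fitted log2 fold changes were called in RXR-deficient mAMs (limma p-adj = 0.0175), in ImmAMs against control mAMs (limma p-adj = 3.9e-06) and between the 2 (limma p-adj = 0.00337). The fitted size depends on the offset added to 0 reads, so the ratio of summed reads is given in its place: 15.2 times the control level in RXR-deficient mAMs (79 against 9 reads in total, exact 95% interval 7.63 to 34.5) and 266 times in ImmAMs (1251 reads, 139.6 to 583). These intervals cover counting error only. The first call was lost without RXR-deficient replicate 1 (limma p-adj = 0.0598) or replicate 3 (0.0809), in a range of 0.00658 to 0.0809 over the fits that left out a library.

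Markers that are high in ImmAMs moved with Elovl7 and Scd1 in RXR-deficient mAMs. The 6 interstitial macrophage markers summed to 2.03, 1.18, 3.97 and 2.47% of their ImmAM mean in RXR-deficient replicates 1 to 4 and to 0.598 to 0.893% in control mAMs. Elovl7 was at 5.58, 3.20, 9.47 and 6.16% of its ImmAM mean in the same 4 libraries. Replicate 3 was highest and replicate 2 lowest in both. Scd1 was at 94.5, 47.7, 94.7 and 78.9% of its ImmAM mean there, and at 20.9 to 44.2% in control mAMs. The 7 monocyte markers in the table, led by Fn1, summed to 20.8 to 30.2% of their ImmAM mean in control mAMs and 19.8 to 28.0% in RXR-deficient mAMs. Fn1 made up most of that sum, and single monocyte markers were higher in all 4 RXR-deficient libraries: Cx3cr1, which is in both lists, at 1.51 to 8.34 CPM against 0.583 to 1.10 in control mAMs, Itgam at 3.93 to 9.95 against 3.52 to 3.86, and F13a1 at 0.149 to 0.389 against 0.0188 to 0.123. The part of ImmAM-type RNA in these 2 results was not tested.

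**Figure D3:**
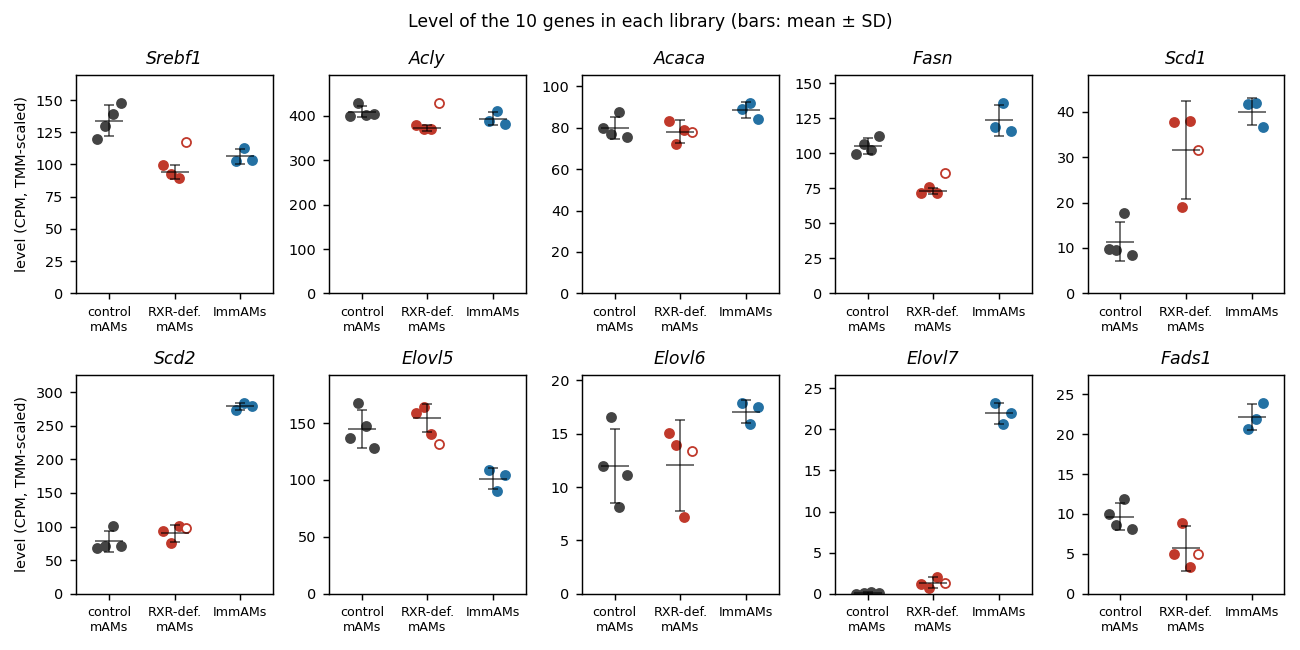
CPM of each of the 10 genes by library, on axes that start at 0; filled points are libraries in the fit, the open point is RXR-deficient replicate 4, and bars are the mean ± SD without it. Fasn and Srebf1 sit lower and Scd1 higher in RXR-deficient mAMs, while Scd2, Elovl7 and Fads1 are highest in ImmAMs.

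The other members were not called between RXR-deficient and control mAMs. Fads1, the delta-5 desaturase, came nearest: it was at 9.95, 8.59, 11.9 and 8.13 CPM in control mAMs and at 4.92, 8.82, 3.30 and 4.93 CPM in RXR-deficient mAMs. RXR-deficient replicate 2 lay among the controls and the other RXR-deficient libraries below them (log2 fold change -0.87 ± 0.262, limma p-adj = 0.0736). Without that library Fads1 was at -1.24 and called (limma p-adj = 0.00401, in a range of 0.00401 to 0.253 over the fits that left out a library). It was also called with DESeq2 (log2 fold change -0.76) and with Xist as covariate (-0.94). Acly was 370 to 381 CPM in RXR-deficient replicates 1 to 3, below the 401 to 428 CPM of control mAMs, but 429 CPM in replicate 4 (log2 fold change -0.13 ± 0.0555, limma p-adj = 0.170). Acaca, the carboxylase, had overlapping groups and a log2 fold change of -0.04, with a 95% interval of -0.20 to 0.13. Elovl5, which extends polyunsaturated chains, had 0.10 (-0.12 to 0.31), and Elovl6, which extends palmitate to stearate, -0.02 (-0.58 to 0.55). For Acaca, 28.8% of the 60-base windows of its annotated transcripts occur in other genes, so part of its reads were divided by estimate.

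Between ImmAMs and control mAMs, 7 of the 10 genes were called, 5 higher (Fasn, Scd1, Scd2, Elovl7 and Fads1) and 2 lower (Srebf1 and Elovl5). Of all genes tested, 48.1% were called (22.8% higher, 25.3% lower), so many calls are the rule in this comparison. The same 7 genes had libraries that did not overlap, as had 51.3% of all genes. The median log2 fold change of the 10 genes was 0.39, against -0.0025 over all genes. Fads1 was at 20.7, 21.9 and 23.9 CPM in ImmAMs, above all mAM libraries (log2 fold change 1.21 ± 0.262, limma p-adj = 0.00199). Elovl5 was at 109, 90.4 and 104 CPM, below the 128 to 167 CPM of control mAMs (log2 fold change -0.51 ± 0.0980, limma p-adj = 8.0e-04).

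Acly, Acaca and Elovl6 were not called in that comparison. Acly lay at 382 to 410.2 CPM in ImmAMs (log2 fold change -0.06, 95% interval -0.18 to 0.06) and Acaca at 84.1 to 91.9 CPM (0.15, -0.02 to 0.31). For Elovl6, ImmAMs had 15.9 to 17.9 CPM against 8.13 to 16.5 CPM in control mAMs (0.56, 95% interval -0.0025 to 1.12, limma p-adj = 0.0930). The Elovl6 difference was called without control replicate 2 (limma p-adj = 0.0362), without RXR-deficient replicate 3 (0.0319) and with only the 2 groups in the fit (0.0388), in a range of 0.0319 to 0.230 over the fits that left out a library and 0.0210 to 0.153 over the other settings. The sum over the 10 genes was 985 ± 38.8 CPM in control mAMs, 914 ± 29.2 in RXR-deficient replicates 1 to 3 and 1193 ± 28.6 in ImmAMs.

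Between ImmAMs and RXR-deficient mAMs, which share the genotype label, 5 of the 10 genes were called, where 37.9% of all genes were (17.7% higher, 20.2% lower). Fasn, Scd2, Elovl7 and Fads1 were higher in ImmAMs and Elovl5 was lower. RXR-deficient replicates 1 to 3 did not overlap with ImmAMs for 9 of the 10 genes, all but Scd1, and for 51.2% of all genes; replicate 4 overlapped for Acly and Srebf1 too. The log2 fold change was 2.08 ± 0.280 for Fads1 (limma p-adj = 7.1e-05) and -0.61 ± 0.105 for Elovl5 (limma p-adj = 5.0e-04). The median over the 10 genes was 0.49, against -0.0053 over all genes.

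**Figure D4:**
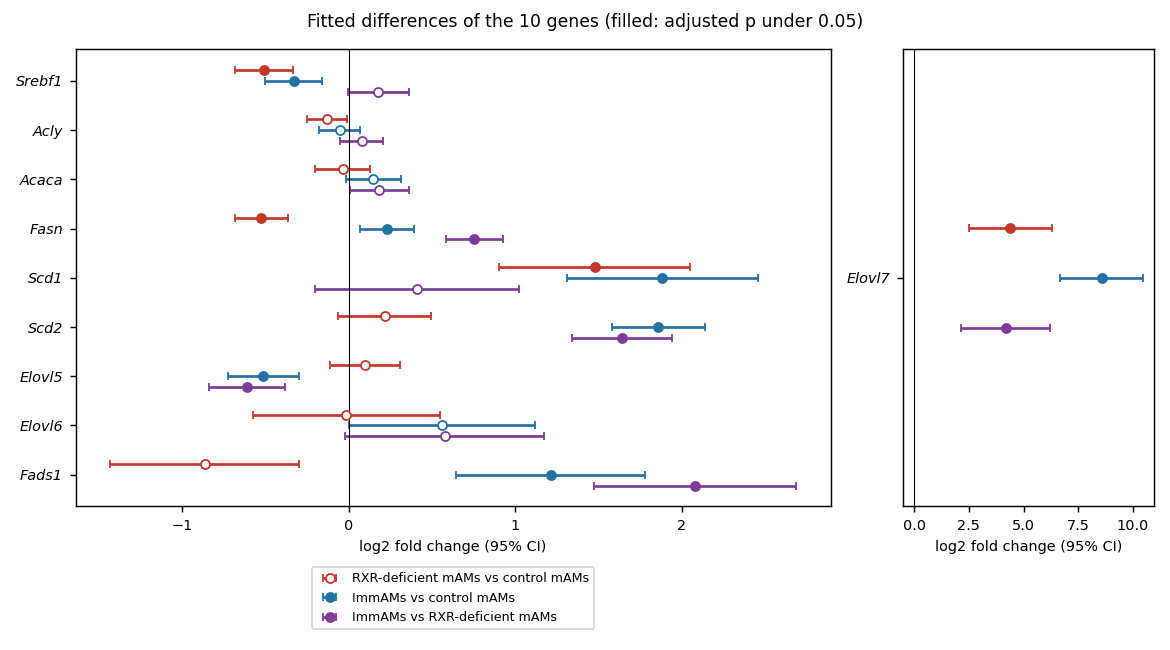
Fitted log2 fold change with its 95% interval for each gene in the 3 comparisons, Elovl7 on an axis of its own; filled points have a limma p-adj under 0.05. Fasn is at -0.53 in RXR-deficient mAMs and at 0.23 in ImmAMs against control mAMs, and Scd2 is called only where ImmAMs are compared.

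The genes around these steps were followed in lists of 60 genes, of which 49 were tested. Between RXR-deficient and control mAMs, 3 were called, 1 higher and 2 lower, where 4.84% of all genes were, so this share is near that of all genes. The median log2 fold change was -0.09, against -0.0019 over all genes. Slc25a1, the mitochondrial citrate carrier that supplies Acly, was at 63.3, 69.0, 70.2 and 73.8 CPM in control mAMs and at 52.6, 51.9, 43.9 and 57.5 CPM in RXR-deficient mAMs, without overlap (log2 fold change -0.49, limma p-adj = 0.0104). Srebf2, the SREBP gene best known for cholesterol synthesis, was at 169, 172, 146 and 172 CPM against 122, 126, 109 and 148 CPM, and only replicate 4 reached into the controls (-0.47, limma p-adj = 0.0114). Abca1, a cholesterol exporter and LXR target, was called higher (0.59, limma p-adj = 0.0388), although control replicate 3, at 258 CPM, exceeded RXR-deficient replicate 2, at 251 CPM. The Abca1 call was lost in 7 of 10 fits that left out a library, those of Slc25a1 and Srebf2 in 1 each, without RXR-deficient replicate 3.

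None of the 7 tested elongation genes, the 6 desaturation genes, the 3 malonyl-CoA genes, the 5 mitochondrial synthesis genes or the 8 lipogenic transcription factors was called between RXR-deficient and control mAMs. The factors included Nr1h3, which encodes an LXR: it had 33.3 to 42.4 CPM in control mAMs and 22.4 to 34.7 CPM in RXR-deficient mAMs (log2 fold change -0.46, limma p-adj = 0.102).

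In ImmAMs against control mAMs, 35 of the 49 genes were called, 11 higher and 24 lower, where 48.1% of all genes were (22.8% higher, 25.3% lower). These counts include Me1, Scd4 and Fads2, whose calls are no support, as given below. Their median log2 fold change was -0.19, against -0.0025 over all genes. Genes that supply precursors and NADPH were mostly lower. Idh1 (log2 fold change -0.86), G6pdx (-0.72), Slc25a1 (-0.71) and Pgd (-0.56) fell, while Acss2 (0.68) and Aacs (0.40), which activate acetate and acetoacetate in the cytosol, rose. Mid1ip1, a partner that promotes the polymerisation of acetyl-CoA carboxylase, was at 67.2 to 79.7 CPM against 26.4 to 35.9 CPM (1.28, limma p-adj = 7.3e-07), and Mlycd, which breaks down malonyl-CoA, was lower (-0.74). Of the 5 mitochondrial synthesis genes, Mcat, Oxsm and Mecr were lower, by -0.44 to -0.54, and none was higher. The Acss2 and Aacs calls were each lost in 2 of 10 fits that left out a library, and that of Mcat in 1. Me1 had only 7, 13 and 22 reads in ImmAMs. It passed the filter on low values chiefly through the mAM libraries, where it is high. Its call as lower is therefore no support.

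Cyb5a (-0.78) and Cyb5r3 (-0.88), genes of the electron chain that serves the desaturases, were lower in ImmAMs, where Scd1 and Scd2 were higher. Cyb5b, another cytochrome b5 gene, was lower by a small step (-0.17). Scd4, a further stearoyl-CoA desaturase gene, was at 1.51 to 3.13 CPM against 0.221 to 0.503 CPM in control mAMs, at few reads. It passed the filter on low values only through the ImmAM libraries, so its call as higher there is no support. Fads2, the delta-6 desaturase, lay at 0.209 to 0.673 CPM against 1.03 to 1.57 CPM in control mAMs. It passed the filter only through the control libraries, and its call as lower is no support either. The Cyb5b call was lost in 9 of 10 fits that left out a library. The elongation partners Hacd1 (0.74) and Hacd4 (0.62) were higher and Hacd3 (-0.37) and Elovl1 (-0.23) lower, with the Hacd1 call lost in 3 such fits.

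SREBP control genes were called higher in 4 of 8 cases in ImmAMs against control mAMs: Srebf2 (0.58), Insig1 (0.55), Mbtps2 (0.48) and Mbtps1 (0.20), where 22.8% of all genes were called higher. The Mbtps1 call was lost without ImmAM replicate 4. Scap, the SREBP escort protein, was lower by a small step (-0.22), a call lost in 6 of 10 fits that left out a library. Srebf2 had 228, 270.0 and 240.0 CPM in ImmAMs and thus differed in direction from Srebf1, which was lower there. Against RXR-deficient mAMs the difference in Srebf2 was 1.05 (limma p-adj = 1.4e-06) and in Insig1, an SREBP target that retains SCAP, 0.71 (limma p-adj = 8.0e-04).

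Of the 6 LXR targets outside lipogenesis, 4 were lower in ImmAMs, 1 was higher and 1 was not called, where 25.3% of all genes were lower and 22.8% higher. Nr1h3 was at 4.86 to 6.70 CPM against 33.3 to 42.4 CPM in control mAMs (-2.74, limma p-adj = 2.0e-08), Abcg1, a cholesterol exporter, at -1.69, Mylip at -1.45 and Lpcat3 at -1.07. Apoe was higher by 5.93, and Abca1 had 0.23, not called. Rxrb was lower (log2 fold change -0.82, limma p-adj = 1.3e-04) and Rxra at -0.24, a call lost in 2 of 10 fits that left out a library.

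**Figure D5:**
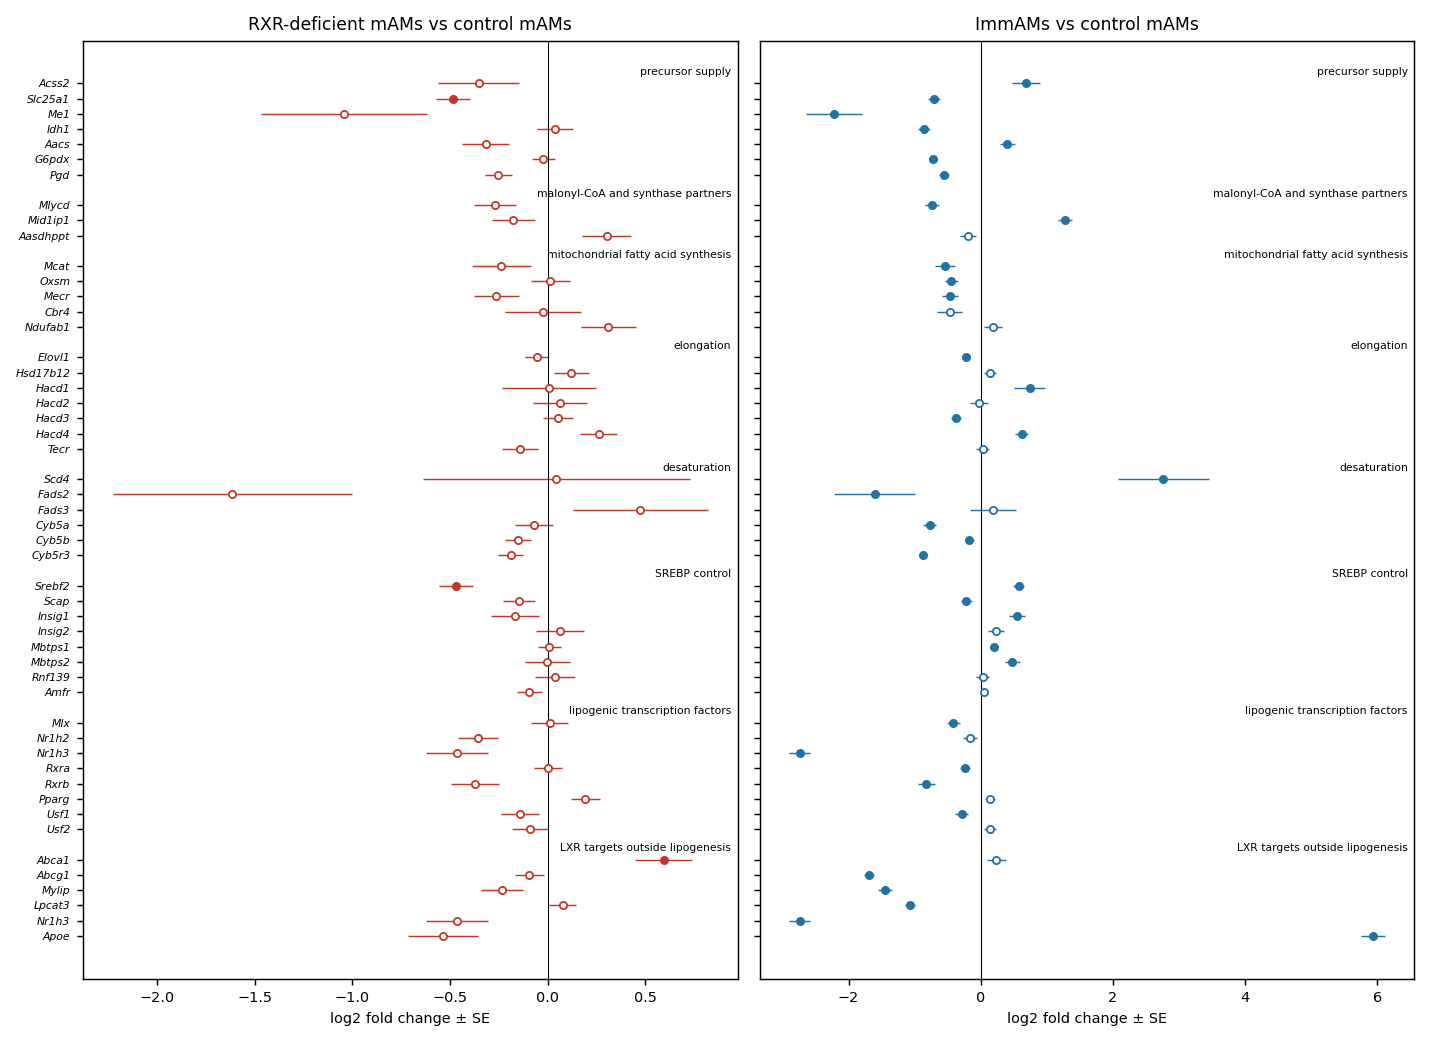
Log2 fold change ± SE of the 49 tested genes of the wider lists, RXR-deficient mAMs (left) and ImmAMs (right) against control mAMs, on axes of different range; filled points have a limma p-adj under 0.05, and Nr1h3 stands in 2 lists. In the left panel 3 genes are filled, in the right panel 35.

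Some genes outside these lists followed a member closely over the 10 libraries, measured as the root mean square difference of log2 CPM centred on each gene's mean. For Srebf1 the nearest were Abhd17a (0.0700), Ap2a1 (0.0745) and Fbl (0.0795). For Fasn they were H6pd (0.0958), Use1 (0.105) and Noxo1 (0.111), and for Scd2 Fnip2 (0.134), Plpp2 (0.138) and Cyp27a1 (0.161). These are descriptions of 10 libraries, chosen from 12889 genes.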

How the data were processed

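RNA from about 40000 sorted cells per library was read as single-end reads of 60 bases. According to the study's methods and the submitters' processing notes, the authors trimmed reads with Cutadapt, mapped them to GRCm38 transcripts and estimated counts with RSEM (1.3.1). The deposited values are CPM with an offset of 0.5 reads, after TMM scaling, and the authors kept genes that reached 1 CPM in 3 or more libraries. Whole reads were recovered from the steps of the CPM columns (100.0% of values within 0.01 of a whole read), so depth is known. The members and lists were chosen with earlier results of these data known. All members and Rxra and Rxrb are named, wider genes where called. Their log2 values were fitted with limma (3.58.1, R 4.3.3, variance trend) on 10 libraries, with 1 CPM in at least 3 of them, leaving 12889 of 12932 genes. Alternatives were 15 other settings, among them edgeR (4.0.16), DESeq2 (1.42.0) and limma-voom on recovered reads, and leaving out each library. Scripts were tested on simulated data. No libraries were duplicates. The study counts libraries as mice, but the labels tie none to an animal, so p-values cover the spread between these libraries. Sources differ on lavage or digested lung. Positions are from GENCODE (GRCm38).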

Additional observations from a re-analysis of the deposited data

Results flagged for a closer look

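In 3 of 20 sets of 4 libraries (10 genes in 2 groups), 1 library stood apart from the others by Dixon's ratio of gap to range, where chance gives about 1 in 20. In control mAMs, replicate 3 was high for Scd2 (101 CPM, next 71.2, ratio 0.922) and for Scd1 (17.7 CPM, next 9.81, ratio 0.845), the same library in both desaturases. Replicate 2 of control mAMs was high for Acly (428 CPM, next 405, ratio 0.841).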

How the results depend on the processing

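For the 10 genes in 3 comparisons, 721 of 749 values under other settings kept their direction and call. Members called between RXR-deficient and control mAMs numbered 4, but 2 without a variance trend, and 2 to 5 when 1 library was left out (2 without RXR-deficient replicate 1 or 3). Wider pathway genes called there numbered 3, but 1 without a variance trend, 8 with DESeq2 and 5 with Xist as covariate, and 0 to 6 when 1 library was left out (0 without RXR-deficient replicate 3, 5 without RXR-deficient replicate 2, 6 without control replicate 1). All genes called there numbered 624, but 337 with all 11 libraries, 199 with only the 2 groups, 122 without a variance trend, 1352 with DESeq2, and 162 to 861 when 1 library was left out. In the comparisons with ImmAMs, members called were 6 to 8 and 5 to 6. Values that changed sign were all uncalled: between RXR-deficient and control mAMs, Acaca ranged from -0.082 to 0.0204 over the fits without a library and was above 0 without control replicate 3 (0.0077) or RXR-deficient replicate 2, and Elovl6 at 0.0398 with all 11 libraries, 0.0165 with edgeR, 0.0156 with DESeq2, 0.0287 with limma-voom and -0.21 to 0.32 over the fits without a library, 3 of them above 0; Acly in ImmAMs against control mAMs was at 0.0628 under quantile normalization. The fitted Elovl7 value in RXR-deficient mAMs fell from 4.39 to 1.04 with 1 CPM added. The cause of these changes was not tested, beyond fewer samples in the fits without a library.

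Replicate numbers are shared, and the deviations of same-numbered libraries had correlations of -0.129 to 0.246, over 0.1 in 2 of 10 pairs. Those 2 were both among the 4 pairs of control and RXR-deficient mAMs (-0.128 to 0.246). Same-numbered libraries were not taken as pairs, and a shared litter or batch was not tested. With replicate number as a block, 4 members, 0 wider genes and 174 genes in all were called between RXR-deficient and control mAMs. Among the genes named in the other 2 comparisons, the block ended the calls of Fasn (0.21), Acss2, Hacd1, Fads2, Cyb5b, Scap and Mbtps1 in ImmAMs against control mAMs and added Elovl6 against control mAMs (0.64) and against RXR-deficient mAMs (0.67).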
